A study of Mus musculus with 22 samples.

Results

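The control kidneys of this RNA-Seq experiment fell into 2 runs of sample label numbers, one in the 300s and one in the 500s, and gene expression was compared between them. Members were chosen by the label number alone, among mice that received no cisplatin. This gave 11 of the 22 libraries, 6 labelled in the 300s (3 vehicle and 3 KW6002) and 5 labelled in the 500s (2 vehicle and 3 KW6002), with 1 library per mouse. All mice were male C57Bl6/J of 8 to 10 weeks. Vehicle mice received the carrier of DMSO, cremophor, and saline. KW6002 mice received istradefylline, an antagonist of an adenosine receptor, at 3 mg/kg intraperitoneally every day from day -5 to day 7. The other 11 libraries, from 5 mice given cisplatin and 6 given cisplatin plus KW6002, all carried numbers in the 500s. Cisplatin was injected 6 times at 3 mg/kg, and those mice were killed 72 hours after the last injection. The sources used here do not say what the numbers stand for. Date of experiment, shipment of animals, hour of killing, and batch of library preparation therefore cannot be told apart. P-values measure the spread between mice within a series and treatment. In the fit with treatment as a covariate, that spread also takes in any dependence of the series difference on treatment.

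Much of the kidney transcriptome varies through the day. In the mammalian clock, the proteins of Arntl (BMAL1) and of Clock or Npas2 form a transcription factor that binds E-boxes and switches on the Per, Cry, and Nr1d genes. PER and CRY proteins then repress that factor, while NR1D proteins (REV-ERB) repress and ROR proteins activate Arntl, Npas2, Nfil3, and other genes with a ROR motif. DBP, TEF, and HLF activate through the D-box, and NFIL3 represses through it. Clock output in the kidney includes sodium transport and drug transport genes, and the adrenal glucocorticoid rhythm adds a systemic signal.

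Stretches of clock gene promoters were read from the RefSeq windows (GRCm38.p6) to show the motifs through which these genes are linked. The 250 bases before the gene start were searched on both strands for the E-box CACGTG, the D-box TTATGTAA or TTACGTAA, and the ROR motif AGGTCA. Of the clock genes followed here, 17 had an entry. An E-box was found in 5 of them (Per1, Cry1, Ciart, Bhlhe41, and Tef), a D-box in 1 (Per3), and a ROR motif in 4 (Clock, Per1, Nr1d2, and Nfil3). Among all 32851 promoter windows, the shares with a match were 6.02% for the E-box, 0.931% for the D-box, and 14% for the ROR motif. These shares are per window, while a gene with several windows was counted if any of them matched. Capitals mark the matches, the ROR motif reading TGACCT where it lies on the other strand. The stretch of Ciart at chr3:95882252-95882359 (minus strand) held 3 E-boxes. Those shown for comparison are from Cry1 at chr10:85185094-85185129 (minus), Per1 at chr11:69098768-69098832 (plus), Per3 at chr4:151044801-151044885 (minus), Nr1d2 at chr14:18239163-18239198 (minus), and Nfil3 at chr13:52981040-52981066 (minus).
Ciart: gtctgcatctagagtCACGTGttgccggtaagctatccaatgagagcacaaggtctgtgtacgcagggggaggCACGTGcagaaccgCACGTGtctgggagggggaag
Cry1: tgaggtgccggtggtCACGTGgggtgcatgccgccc
Per1: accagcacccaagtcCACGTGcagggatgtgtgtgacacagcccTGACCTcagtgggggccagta
Per3: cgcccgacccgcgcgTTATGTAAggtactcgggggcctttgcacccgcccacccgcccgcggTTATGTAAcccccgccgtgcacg
Nr1d2: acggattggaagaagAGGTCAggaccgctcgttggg
Nfil3: cgcggcgctcggaacTGACCTactaac
A match describes the letters of these windows only.

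Across 16991 tested genes, 1770 differed between the series at an adjusted p below 0.05 in edgeR's quasi-likelihood test with treatment as a covariate, which is 10.4% of the genes tested. Of these, 945 were higher in the 500s (5.56%) and 825 were lower (4.86%). Most differences were small. The median absolute log2 difference of the called genes was 0.35, 1365 of them lay within 1.5-fold, and 147 lay beyond 2-fold. At an adjusted p below 0.01 and beyond 2-fold, the thresholds that the study applied to kidney genes, 55 genes were called (0.324%), 25 higher and 30 lower. For 1151 genes (6.77%), every library of one series lay above every library of the other. Among the 1770 called genes this held for 963, so lack of overlap was common in genes that were called. The number of calls was 1012 without vehicle mouse 4 and 1129 without vehicle mouse 5, the vehicle mice of the 500s. The stricter count was 32 to 36 without vehicle mouse 1, 4, or 5 or KW6002 mouse 2, 4, or 5.

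Totals ran from 26471762 to 40510754 counts in the 300s and from 27461723 to 33168134 in the 500s. Markers of proximal tubule, the main cell type of the kidney, summed to between 40300 and 46000 in every library, in counts scaled to library size (CPM). Vehicle mice 1 and 2, both of the 300s, stood apart on the first principal component, with 30.2% of the variance. Their thick ascending limb markers summed to 6410 and 7079 CPM against 9149 to 11080 in the other 9 libraries, and their fat markers other than Pck1 to 776 and 1420 CPM against 62.5 to 612. Collecting duct principal cell markers summed to 465 and 442 CPM in them against 606 to 825. Without both, 1220 genes were called, which included 996 of the 1770, all 996 in the same direction. The number of genes with at least 1 count differed by -468.6 in the 500s (exact permutation test within treatment, p = 0.01, adjusted p = 0.0525). In these kidney samples, fewer cells of a type and less RNA per cell cannot be told apart. Which part of the kidney was taken is not stated in the sources used here.

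Nr1d1 and Ciart, both repressors of the clock, were higher in the 500s, and Cry1 and Nfil3 were lower. Among the 10 core clock repressors, 3 were called higher and 2 lower (50%), and among the 4 PAR bZIP factors and Nfil3 2 and 1 (75%). Of all tested genes 10.4% were called. The median log2 difference was 0.33 and 0.20 in these lists and -0.004 over all tested genes. Nr1d1 (chr11:98767932-98775333, mm10), which encodes REV-ERB alpha, was at 71.3, 92.9, and 47.3 CPM in vehicle mice and at 21.8, 13.1, and 18.7 CPM in KW6002 mice of the 300s. In the 500s it was at 139.6 and 169 CPM in vehicle mice and at 108.5, 108.1, and 76.1 CPM in KW6002 mice. The series thus overlapped only through vehicle mouse 2 of the 300s and KW6002 mouse 6 of the 500s, and within each treatment they did not overlap. The log2 difference was 1.86 (SE 0.26, adjusted p = 0.00158). Without the treatment term it was 1.45 with an adjusted p of 0.0544, and in both series the KW6002 mice lay below the vehicle mice. Nr1d1 overlaps Thra on the opposite strand, and whether strand was used in counting is not given in the sources used here, so reads of the overlap cannot be told apart. The same holds for Ciart with C920021L13Rik, Dbp with Sphk2, and Cry2 with D930015M05Rik. Tef, Arntl, Npas2, Rora, Bhlhe40, and Bhlhe41 also overlap a gene on the opposite strand. So do some called genes below, such as Herpud1, Usp2, Timeless, Txnip, Il34, and Jund.

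**Figure D1:**
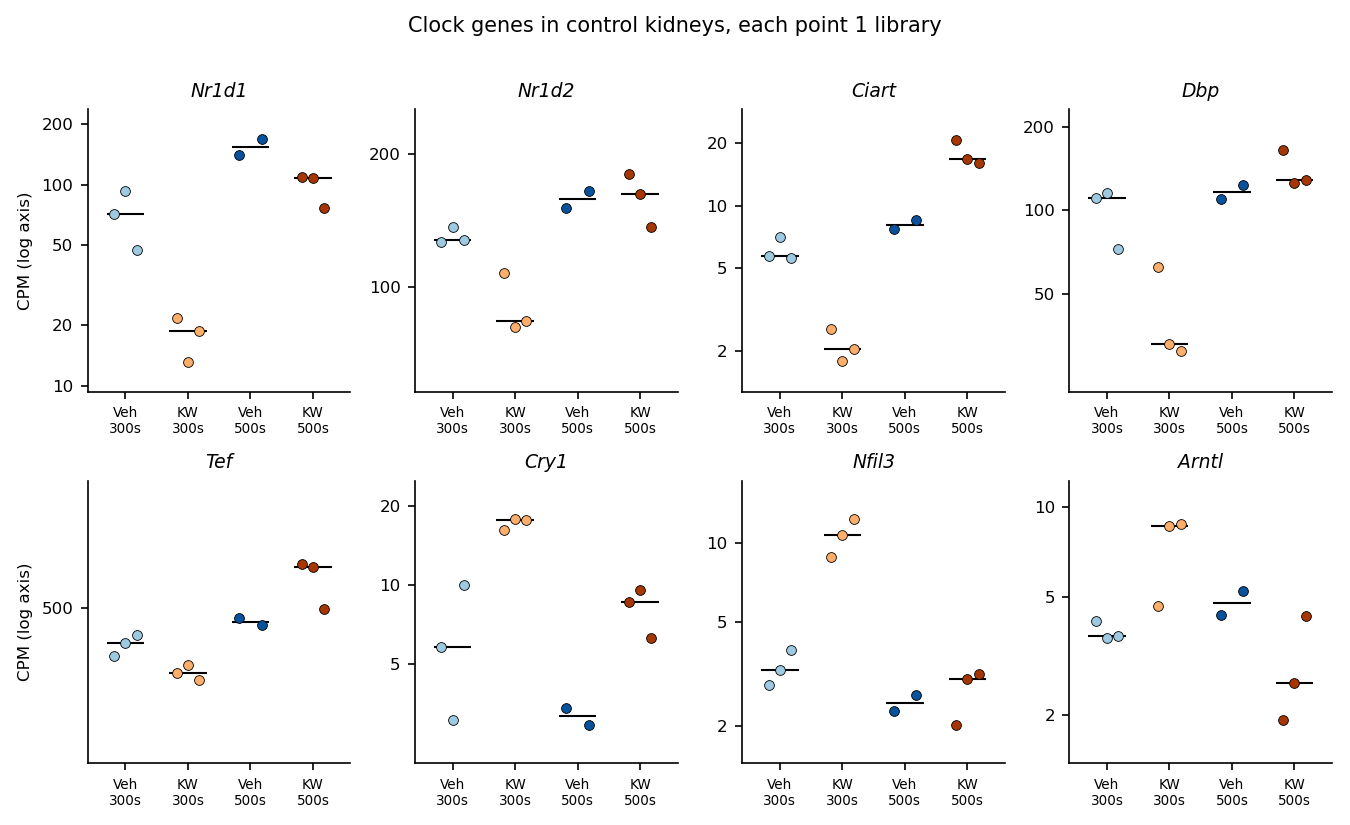
CPM on a log axis of 8 clock genes in the 11 control libraries, grouped as vehicle (Veh) and KW6002 (KW) in the 300s and 500s, with 1 point per library and a line at the group median. KW6002 mice of the 300s sit lowest for Nr1d1 (13.1 to 21.8 CPM) and highest for Nfil3 (8.84 to 12.3 CPM).

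Ciart (chr3:95878503-95882251), whose product represses the BMAL1 complex and whose promoter stretch above held 3 E-boxes, did not overlap between the series. It was at 5.72, 7.08, and 5.62 CPM in vehicle mice and at 2.57, 1.79, and 2.06 CPM in KW6002 mice of the 300s. In the 500s the values were 7.68 and 8.54 CPM in vehicle mice and 20.8, 16.8, and 16.0 CPM in KW6002 mice. The gap was thus small in vehicle mice and wide in KW6002 mice, with a log2 difference over both of 1.88 (SE 0.42, adjusted p = 0.0154). Nr1d2, the paralog of Nr1d1, ran from 81 to 137 CPM in the 300s and from 136.5 to 181 CPM in the 500s, a log2 difference of 0.58 (SE 0.11, adjusted p = 0.00893). The cryptochromes moved the other way. Cry1 (chr10:85131700-85185064) was at 5.78, 3.07, and 9.99 CPM in vehicle mice and 16.2, 17.7, and 17.6 CPM in KW6002 mice of the 300s. Its levels in the 500s were 3.41 and 2.94 CPM in vehicle mice and 8.60, 9.54, and 6.30 CPM in KW6002 mice. The series overlapped when treatments were mixed, KW6002 mice being above vehicle mice in both, and the log2 difference was -1.04 (SE 0.22, adjusted p = 0.0137; 0.193 without the treatment term). Cry2 differed by -0.24 (SE 0.06, adjusted p = 0.0271), a call that ended without vehicle mouse 1 (0.0517), vehicle mouse 4 (0.0927), vehicle mouse 5 (0.0886), or KW6002 mouse 6 (0.0526), and without the treatment term (0.168). The period genes were not called, with log2 differences of 0.55 for Per1 (adjusted p = 0.0943), -0.08 for Per2 (0.725), and -0.05 for Per3 (0.81). Bhlhe41 and Bhlhe40, which encode the repressors DEC2 and DEC1, were at 0.72 (0.105) and 0.11 (0.604).

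On the activator side, Arntl (chr7:113207465-113314126) was not called at -0.58 (SE 0.32, adjusted p = 0.266). It lay between 3.63 and 4.66 CPM in 4 of the 6 mice of the 300s and at 8.65 and 8.76 CPM in KW6002 mice 2 and 3, while the 500s ran from 1.92 to 5.20 CPM. Npas2, the partner that can replace Clock, was at -0.82 (adjusted p = 0.0625), Rorb at -0.55 (0.156), Rora at 0.13 (0.289), and Clock at 0.04 (0.716).

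Of the factors that act through the D-box, Dbp (chr7:45705088-45710203) and Tef were higher in the 500s and their opponent Nfil3 was lower. Dbp was at 111, 115, and 72.8 CPM in vehicle mice and 62.8, 33.1, and 31.2 CPM in KW6002 mice of the 300s. In the 500s it reached 110.1 and 123 CPM in vehicle mice and 165, 125, and 129 CPM in KW6002 mice. The vehicle mice of the series overlapped and the KW6002 mice did not, and the log2 difference was 1.07 (SE 0.29, adjusted p = 0.0344). That call ended when any 1 of the 6 KW6002 libraries was left out (adjusted p = 0.0551 to 0.0784) and without the treatment term (0.0874). Tef ran from 374 to 449 CPM in the 300s and from 467 to 597.5 CPM in the 500s, with no overlap and a log2 difference of 0.36 (SE 0.08, adjusted p = 0.0129). Nfil3 (chr13:52967209-52981073), whose ROR motif is shown above, was at 2.88, 3.29, and 3.93 CPM in vehicle mice and 8.84, 10.7, and 12.3 CPM in KW6002 mice of the 300s. In the 500s it was at 2.29 and 2.63 CPM in vehicle mice and 2.03, 3.05, and 3.17 CPM in KW6002 mice. The 3 KW6002 mice of the 300s thus held the high values, and the log2 difference was -1.31 (SE 0.26, adjusted p = 0.00906). Hlf was not called at 0.03 (adjusted p = 0.817).

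Both treatments held both series, so the series difference was also read within each. In the fit with 1 mean for each of the 4 groups, 619 genes were called in vehicle mice (3.64%) and 749 in KW6002 mice (4.41%). Both calls were shared by 188 genes, 186 of them in the same direction. For most of the called clock genes the estimate was further from 0 in KW6002 mice. Nr1d1 differed by 1.13 in vehicle mice (adjusted p = 0.0398) and by 2.45 in KW6002 mice (0.00102). Ciart differed by 0.41 in vehicle mice (0.176) and by 3.06 in KW6002 mice (1.1e-05). Dbp was at 0.23 and 1.72, Nfil3 at -0.45 and -1.95, Npas2 at -0.24 and -1.31, and Bhlhe41 at 0.09 and 1.26, each called in KW6002 mice and not in vehicle mice. The same was true of Tef, at 0.13 and 0.54, and of Nr1d2, at 0.28 and 0.82. Arntl had a difference of 0.32 in vehicle mice (0.591) and of -1.33 in KW6002 mice (0.0276). Cry1 was at -0.99 and -1.07, not called in either alone.

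Whether the series difference depended on treatment was tested as an interaction, and Ciart was the 1 gene called of 16991 (0.00589%). Its difference was larger by 2.66 on the log2 scale in KW6002 mice (SE 0.23, adjusted p = 0.00256). The adjusted p for the interaction was 0.116 for Nfil3, 0.197 for Dbp, 0.213 for Arntl, and 0.234 for Nr1d1. The count of genes was unstable. It was 180 with DESeq2, 306 without vehicle mouse 3, 19 without vehicle mouse 4, 3 without KW6002 mouse 1, and 2 without vehicle mouse 1, vehicle mouse 2, vehicle mouse 5, or KW6002 mouse 5. Ciart was called in each of these. With the replicate number of the labels as a block it was at 2.73 with an adjusted p of 0.202.

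**Figure D2:**
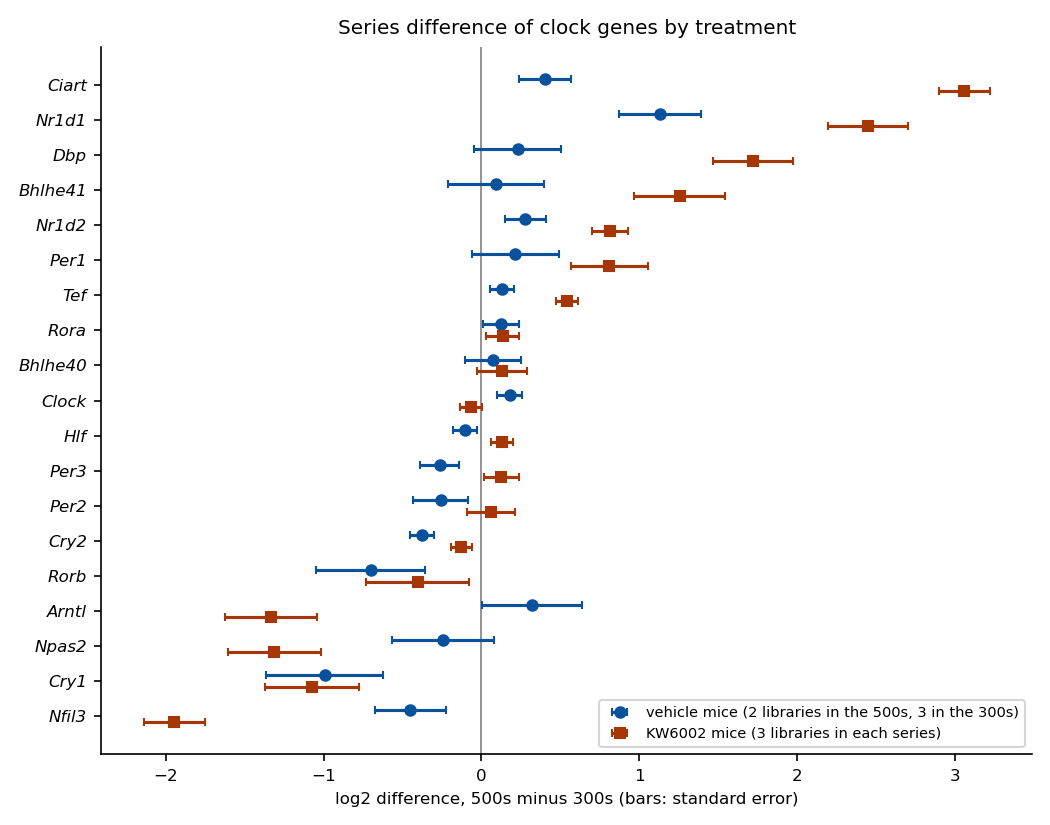
Log2 difference, 500s minus 300s, of 19 clock genes in vehicle mice (circles, 2 libraries in the 500s and 3 in the 300s) and KW6002 mice (squares, 3 in each), with standard errors as bars. Ciart shows the widest gap, 0.41 against 3.06, and Nr1d1 is above 0 in both treatments.

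Clock output genes were called in both directions, 5 higher and 2 lower of 19 (36.8%, against 10.4% of all tested genes). Their median log2 difference was 0.06. Noct, a deadenylase-like protein with a strong daily rhythm in many tissues, was at 12.9 to 18.6 CPM in the 300s and 23.5 to 66.8 CPM in the 500s. Its log2 difference was 1.37 (SE 0.18, adjusted p = 0.00118). Herpud1, a protein of endoplasmic reticulum quality control, ran from 249 to 323 CPM and from 429 to 539 CPM, a difference of 0.76 (SE 0.07, adjusted p = 2.49e-04). The deubiquitinase gene Usp2 ran from 111 to 161 CPM and from 185 to 253 CPM, a difference of 0.69 (SE 0.07, adjusted p = 4.38e-04). None of these 3 genes overlapped between the series, as was true of 963 of the 1770 called genes. Each had the same sign in vehicle mice and KW6002 mice. Cdkn1a was higher by 0.75, a call that ended without vehicle mouse 4 (adjusted p = 0.0557), and Coq10b by 0.71. Lonrf3 and Tspan4 were lower, by -0.60 and -0.36 on the log2 scale. The call for Lonrf3 ended without any 1 of 8 libraries (adjusted p = 0.0523 to 0.102 without vehicle mice 1, 3, or 4 or KW6002 mice 2 to 6), and that for Tspan4, which overlaps Chid1, without the treatment term (0.114). Coq10b and Lonrf3 were named after their values were seen. Among 11 clock kinases and modifiers (18.2% called), Sirt1, a deacetylase, was higher by 0.25 and Timeless lower by -0.55. Sirt1 was no longer called without KW6002 mouse 1, 3, 4, or 5 or vehicle mouse 4 (adjusted p = 0.054 to 0.0686).

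Targets of the glucocorticoid receptor were higher in the 500s. Of 19 tested members, 11 were called higher (57.9%, against 5.56% of all tested genes) and 0 lower, with a median log2 difference of 0.48. Fkbp5 (chr17:28399094-28517527), a co-chaperone of the receptor and one of its targets, was at 109.9, 100.9, and 116 CPM in vehicle mice and 129, 136, and 145 CPM in KW6002 mice of the 300s. In the 500s it was at 229 and 189 CPM in vehicle mice and 252, 257, and 161 CPM in KW6002 mice. Every mouse of the 500s was above every mouse of the 300s, with a log2 difference of 0.81 (SE 0.11, adjusted p = 0.00131). Klf15, a regulator of amino acid and lipid metabolism, ran from 62.3 to 87.2 CPM and from 108 to 131 CPM, a difference of 0.64 (SE 0.08, adjusted p = 9.54e-04). Map3k6, a stress kinase, and Mt1, a metallothionein, did not overlap either, at 1.04 (SE 0.17, adjusted p = 0.0035) and 0.63 (SE 0.12, adjusted p = 0.00766). The widest difference among the called members was that of the transcription factor gene Zbtb16, which ran from 2.06 to 28.2 CPM in the 300s and from 17.5 to 74.3 CPM in the 500s (2.49, SE 0.56, adjusted p = 0.0171). Klf9 (0.44), Hif3a (1.38), Arrdc2 (0.40), Mt2 (0.99), and Dusp1 (0.48) completed the called members with Cdkn1a, and they and Zbtb16 were named after their values were seen. The calls of 3 of them rested on single libraries: Hif3a without vehicle mouse 4 (adjusted p = 0.0603), Mt2 without any 1 of the KW6002 mice (up to 0.0777), and Dusp1 without vehicle mouse 4 or 5 or any KW6002 mouse but mouse 4 (up to 0.0782). Members not called included Sgk1 (-0.36, adjusted p = 0.45) and Tsc22d3 (0.33, adjusted p = 0.158), also named after their values were seen, and Per1. The list held 5 calls in vehicle mice, 6 in KW6002 mice, and 9 without vehicle mice 1 and 2, each higher.

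Genes of the immediate early response, which respond to many stimuli within minutes, and of the heat shock response, which encode chaperones, were also higher. Of 22 immediate early genes, 9 were called higher (40.9%, against 5.56% of all tested genes) and 0 lower (median 0.43). Only 4 were called without vehicle mouse 4. Atf3, a stress-induced transcription factor, ran from 0.759 to 1.63 CPM in the 300s and from 2.23 to 5.40 CPM in the 500s, a log2 difference of 1.64 (SE 0.25, adjusted p = 0.00226). The nuclear receptor gene Nr4a1 ran from 3.36 to 6.17 CPM and from 6.18 to 32.6 CPM, a difference of 1.52 (SE 0.32, adjusted p = 0.012). Both were free of overlap, though for Nr4a1 the gap was narrow. Jund (0.78, adjusted p = 0.0017) and Fosl2 (0.44, adjusted p = 0.00925), subunits of AP-1, were free of overlap too. The other called members were Fosb, Nr4a2, Dusp1, Klf2, and Junb, named after their values were seen, which overlapped between the series. Each lost the call without vehicle mouse 4, and all but Fosb also without some other single library. Of 18 heat shock genes, 6 were called higher (33.3%) and 0 lower (median 0.25). In vehicle mice 5 were called, with a median of 0.38, and in KW6002 mice 1, with a median of 0.11, against 2 and 5 calls with medians of 0.52 and 0.35 for immediate early genes. Hspa1b and Hspa1a, near-identical copies of HSP70 whose counts are uncertain gene by gene, were at 1.30 (SE 0.26, adjusted p = 0.0106) and 1.03 (SE 0.17, adjusted p = 0.00416). Hsph1 (0.49), Bag3 (0.38), and Dnajb1 (0.31), partners of HSP70, did not overlap between the series. Hspb1, a small heat shock protein named after its values were seen, was called at 0.58 (adjusted p = 0.0468) and lost the call without any 1 library except KW6002 mouse 4 (up to 0.11).

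Promoter stretches of called members of both lists are shown for the letters of the motifs through which the receptor and heat shock factors are known to act. The windows were searched on both strands for ACANNNTGT, the core of the glucocorticoid response element, found in 5.84% of all windows, and for GAANNTTC, from the heat shock element, found in 6.69%. The first was present in 2 of 10 called glucocorticoid genes with an entry (Mt1 and Map3k6), and the second in 3 of 6 called heat shock genes (Hspa1a, Hspa1b, and Hspb1). The stretches lie at chr8:94178982-94179020 (plus strand) for Mt1, chr4:133240624-133240662 (plus) for Map3k6, chr17:34959320-34959357 (minus) for Hspa1b, and chr5:135887787-135887844 (plus) for Hspb1, and that of Hspa1a at chr17:34972238-34972275 (minus) was the same letter for letter as that of Hspa1b. Genes were again counted if any of their windows matched, while the shares are per window. Capitals mark the matches.
Mt1: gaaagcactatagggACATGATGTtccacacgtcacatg
Map3k6: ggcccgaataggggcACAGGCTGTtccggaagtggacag
Hspa1b: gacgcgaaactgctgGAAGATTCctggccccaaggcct
Hspb1: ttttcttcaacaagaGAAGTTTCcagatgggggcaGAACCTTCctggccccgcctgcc

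**Figure D3:**
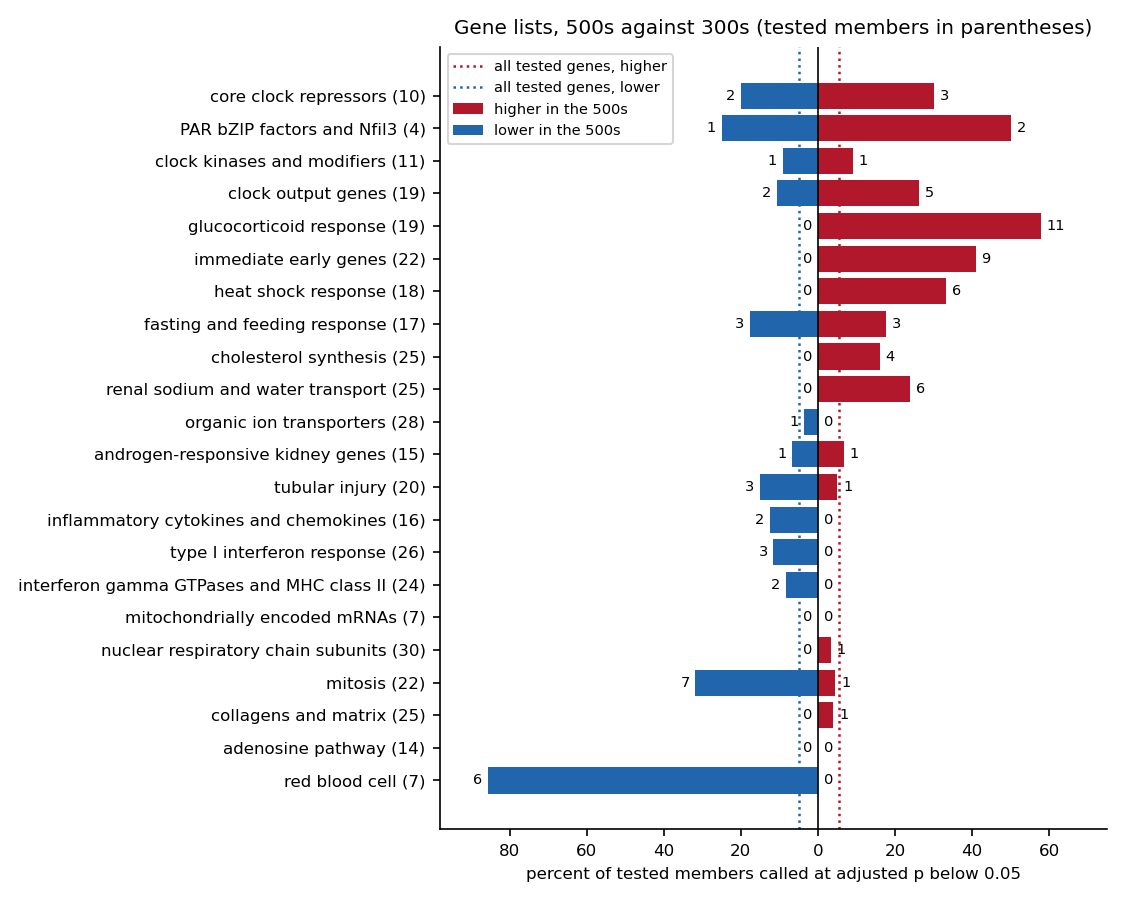
Percent of tested members of each gene list called at an adjusted p below 0.05, higher in the 500s to the right and lower to the left, with counts at the bar ends and dotted lines at the shares of all tested genes (5.56% and 4.86%). The glucocorticoid list reaches furthest to the right (11 of 19) and the red blood cell list furthest to the left (6 of 7).

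Metabolic and transport genes showed smaller differences. Of 25 genes of renal sodium and water transport, 6 were called higher (24%, against 5.56% of all tested genes) and 0 lower. The median was 0.04, and 9 of the 25 were below 0. Slc9a3, the apical sodium-proton exchanger of the proximal tubule, ran from 155.5 to 198 CPM in the 300s and from 215 to 257 CPM in the 500s (0.46, SE 0.06, adjusted p = 0.0012). Wnk1, a kinase that controls sodium chloride transport, differed by 0.35, Slc5a1, a sodium-glucose transporter, by 0.33, and Klhl3, a regulator of WNK kinases, by 0.30. Atp1b1, a subunit of the sodium pump, differed by 0.23 and was named after its values were seen. None of these overlapped between the series, as was true of 963 of the 1770 called genes. Of 25 genes of cholesterol synthesis, 4 were called higher (16%) and 0 lower (median 0.08, with 8 below 0). Only 2 were called without vehicle mouse 1, 2, or 4 or KW6002 mouse 4. Sqle and Hmgcs1, early enzymes of the pathway, were at 0.57 (SE 0.08, adjusted p = 0.00119) and 0.48 (SE 0.09, adjusted p = 0.00548), while Hsd17b7 (0.28) was not called without vehicle mouse 1, 2, or 4 or any KW6002 mouse but mouse 6 (up to 0.104).

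Of 17 genes of fasting and feeding, 3 were called higher and 3 lower (35.3%, against 10.4% of all tested genes), and 1 and 2 without vehicle mouse 4. Txnip, a glucose-responsive thioredoxin inhibitor, was at 0.71 (adjusted p = 0.00167), Angptl4, an inhibitor of lipoprotein lipase, at 0.64 (0.0146; 0.0541 without vehicle mouse 4), and the coactivator gene Ppargc1a at 0.27 (0.0224). Plin2, a lipid droplet protein, was at -0.42 (0.0017), and the peroxisomal enzyme gene Ehhadh at -0.22 (0.0113; 0.15 without the treatment term). Ppargc1a was named after its values were seen and lost the call without vehicle mouse 4 or 5 or KW6002 mouse 5. Organic ion transporters gave 1 call of 28 (3.57%, below the 10.4% of all tested genes). It was Slc22a8 (OAT3) at -0.43 (SE 0.09, adjusted p = 0.0103), with 754 to 1010 CPM in the 300s and 536.6 to 714 CPM in the 500s. The count of that list was 2 to 3 without vehicle mouse 3 or KW6002 mouse 1 or 6. Of 15 androgen-responsive genes, 13.3% were called, near the 10.4% of all tested genes, with a median of 0.02. They were Cyp2j13 (0.43) and Timd2 (-0.24). The call for Timd2 ended without any 1 of 5 libraries, KW6002 mice 1, 4, or 6 or vehicle mice 4 or 5. Nuclear respiratory chain subunits gave Uqcrfs1 (0.23) of 30 (2 calls without KW6002 mouse 5) and matrix genes Col4a5 (0.22) of 25, both small. Those shares, 3.33% and 4%, were below the 10.4% of all tested genes. The call for Uqcrfs1 ended without vehicle mouse 1, 2, or 5 or KW6002 mouse 2, 3, or 4 (up to 0.0948), and that for Col4a5 without vehicle mouse 1 or 4 or any KW6002 mouse but mouse 6 (up to 0.0729). Adenosine pathway genes gave 0 calls of 14 in edgeR, 3 at an unadjusted p below 0.05 and 0 with DESeq2, and 1 call without vehicle mouse 2. Mitochondrially encoded mRNAs gave 0 calls of 7, 1 at an unadjusted p below 0.05 and 0 with DESeq2.

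Mitosis genes were lower in the 500s. Of 22 tested, 7 were called lower and 1 higher (36.4% called, against 10.4% of all tested genes), and the median log2 difference was -0.65. Mki67, a marker of cycling cells, ran from 4.81 to 6.96 CPM in the 300s and from 2.65 to 3.55 CPM in the 500s (-0.79, SE 0.13, adjusted p = 0.00412). Ube2c, which drives exit from mitosis, ran from 0.697 to 0.98 CPM and from 0.252 to 0.52 CPM (-1.22, SE 0.21, adjusted p = 0.00485), and Cenpe, a kinetochore motor, was at -0.63 (SE 0.13, adjusted p = 0.0104). Those 3 genes did not overlap between the series, but their levels were low, and Ube2c overlaps Tnnc2. Ccna2, Tpx2, Cdk1, and Ccnb2, at -0.64 to -0.77, were named after their values were seen. Kif23, a motor of the cytokinetic bridge, went the other way, from 5.51 to 8.29 CPM in the 300s to 11.9 to 19.9 CPM in the 500s (1.11, SE 0.14, adjusted p = 9.36e-04). The lower count was 3 without vehicle mouse 4 or 5, 4 without KW6002 mouse 6, and 3 without vehicle mice 1 and 2 together.

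Immune and injury lists were set beside all tested genes, of which 10.4% were called. The share was 11.5% for type I interferon genes and 8.33% for the interferon gamma and MHC class II list. It was 12.5% for cytokines and chemokines and 20% for tubular injury genes. Type I interferon genes were called lower in 3 of 26 (Ifi44, Ddx58, and Irf9, -0.21 to -0.34), and genes of the interferon gamma response and MHC class II in 2 of 24 (Gbp7 at -0.41 and Irgm2 at -0.26). The medians were -0.13 and -0.15. In vehicle mice alone the medians were -0.38 with 4 lower calls and -0.43 with 5 lower calls, and in KW6002 mice 0.05 with 1 lower call and -0.03 with 1 higher call. The difference between treatments was not tested over a list. These counts depended on single libraries. The first was 0 without vehicle mouse 4, 1 without vehicle mouse 5 or KW6002 mouse 3, and 5 without KW6002 mouse 2. The second was 1 without vehicle mouse 4 or 5, 4 without KW6002 mouse 2 or 4, and 5 without KW6002 mouse 6. Irf9 overlaps Rnf31 and Irgm2 overlaps Igtp on the same strand, so their counts are uncertain. Of 16 cytokines and chemokines, Il34, a survival factor of macrophages, was at -0.62 (SE 0.07, adjusted p = 3.69e-04) and Icam1, a leukocyte adhesion molecule, at -0.53 (SE 0.09, adjusted p = 0.00327), with no overlap between the series. Tubular injury genes gave 3 lower calls (Plin2, Fga at -0.72, and Fgb at -1.04) and 1 higher (Cdkn1a) of 20. Fga and Fgb encode fibrinogen chains, and the call for Fgb ended without vehicle mouse 5 or any 1 of the KW6002 mice (up to an adjusted p of 0.0988). Macrophage markers had a median of -0.80 with 0 calls of 9 in edgeR, 6 at an unadjusted p below 0.05 and 1 with DESeq2, and 3 without vehicle mouse 3 or KW6002 mouse 2, 2 without KW6002 mouse 6, and 1 without KW6002 mouse 3. Neutrophil markers had a median of -0.83 with 0 calls of 5, 3 at an unadjusted p below 0.05 and 2 with DESeq2, and 3 without vehicle mouse 3. Macrophage markers were below 0 in 8 of 9 members and neutrophil markers in 5 of 5. B cell markers had a median of -0.51, with 7 of 7 below 0 and 0 calls in edgeR, 1 at an unadjusted p below 0.05 and 0 with DESeq2.

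Red blood cell RNA was lower in the 500s, with 6 of 7 markers called (85.7%, against 10.4% of all tested genes). The median log2 difference was -1.59 (5 calls and -1.92 in vehicle mice, 1 call and -1.34 in KW6002 mice). Hbb-bs, an adult beta globin gene, ran from 75.5 to 227 CPM in the 300s and from 38.2 to 62.3 CPM in the 500s (-1.64, SE 0.28, adjusted p = 0.00451). Hbb-bt, Hba-a2, and Hba-a1, the other globin genes, were at -1.82, -1.67, and -1.54, and Alas2, the erythroid enzyme of heme synthesis, at -1.59. None of these overlapped between the series, as was true of 963 of the 1770 called genes. Globin genes of one family are near-identical copies, so their counts are uncertain gene by gene. Summed over the markers, the level was 196 to 440 CPM in the 300s and 123 to 167 CPM in the 500s. Globin mRNA took 0.0123% to 0.0366% of counts in the 300s and 0.00575% to 0.0099% in the 500s (exact permutation test, p = 0.015, adjusted p = 0.0525). Its part in the other differences was not tested.

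Marker lists of kidney cell types are short, and their called shares are given beside the 10.4% of all tested genes. The share was 28.6% for thick ascending limb, 16.7% for proximal tubule, and 16.7% for distal convoluted tubule. It was 12.5% for fibroblasts and pericytes, and 0% for collecting duct principal cells, intercalated cells, podocytes, and endothelium. Counts of these last lists were not stable. Without vehicle mice 1 and 2 together, podocyte markers gave 3 higher calls and intercalated cell markers 2 higher and 1 lower. Endothelium and collecting duct markers then gave 1 lower call each. DESeq2 called 1 intercalated cell marker higher and 1 endothelium marker lower. Thick ascending limb markers were called higher in 2 of 7 (Egf at 0.35 and Cldn10 at 0.24), a count that was 1 without vehicle mouse 1 or 2 or KW6002 mouse 1, 3, or 6 and 0 without vehicle mouse 4 or 5. Proximal tubule markers were called lower in 2 of 12 (Slc22a8 and Miox, at -0.43 and -0.22), and in 1 without vehicle mouse 4 or 5 or KW6002 mouse 1, 2, 5, or 6. Distal convoluted tubule markers were called higher in 1 of 6 (Klhl3; 2 without vehicle mouse 2), and fibroblast and pericyte markers lower in 1 of 8. That member was Ren1, the renin gene of juxtaglomerular cells, with 73.9 to 117 CPM in the 300s and 51.7 to 73.8 CPM in the 500s (-0.55, SE 0.13, adjusted p = 0.0193). Fat markers gave 0 calls of 9 in edgeR, 0 at an unadjusted p below 0.05 and 0 with DESeq2, and collecting duct markers 0 of 7, 0, and 0. The median of the fat markers was -0.94, with 8 of 9 below 0. It was -2.35 in vehicle mice and 0.115 in KW6002 mice.

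Beyond the lists, the widest differences without overlap included genes of several functions. Zim1 (chr7:6671269-6696450), an imprinted zinc finger gene, was at 2.20 to 3.67 CPM in the 300s and 6.77 to 11.6 CPM in the 500s, a log2 difference of 1.73 (SE 0.14, adjusted p = 1.0e-04). Dio2, which activates thyroid hormone, ran from 0.196 to 1.96 CPM and from 2.78 to 9.13 CPM, a difference of 2.09 (SE 0.46, adjusted p = 0.0144). The call for Dio2 ended without vehicle mouse 4 (adjusted p = 0.0519). Cebpb, a transcription factor of the acute phase, was at 1.35, Ankrd1 at 1.35, Bcl6b, a transcriptional repressor, at 1.32, and Apold1, an endothelial early response gene, at 1.13. On the lower side, Nrep ran from 28.9 to 57.4 CPM in the 300s and from 11.7 to 17.1 CPM in the 500s, at -1.81 (SE 0.14, adjusted p = 9.3e-05), the smallest adjusted p among the named genes. Etv4, an ETS factor, was at -1.25, Nav2 at -1.20, Trim46 at -1.19, Dio3os at -1.17, Socs2, a feedback inhibitor of growth hormone signalling, at -1.10, and Tgm1, a transglutaminase, at -1.08. Cebpb, Alas2, and Trim46 overlap Tmem189, Apex2, and Krtcap2 on the opposite strand, and reads of those overlaps cannot be told apart.

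**Figure D4:**
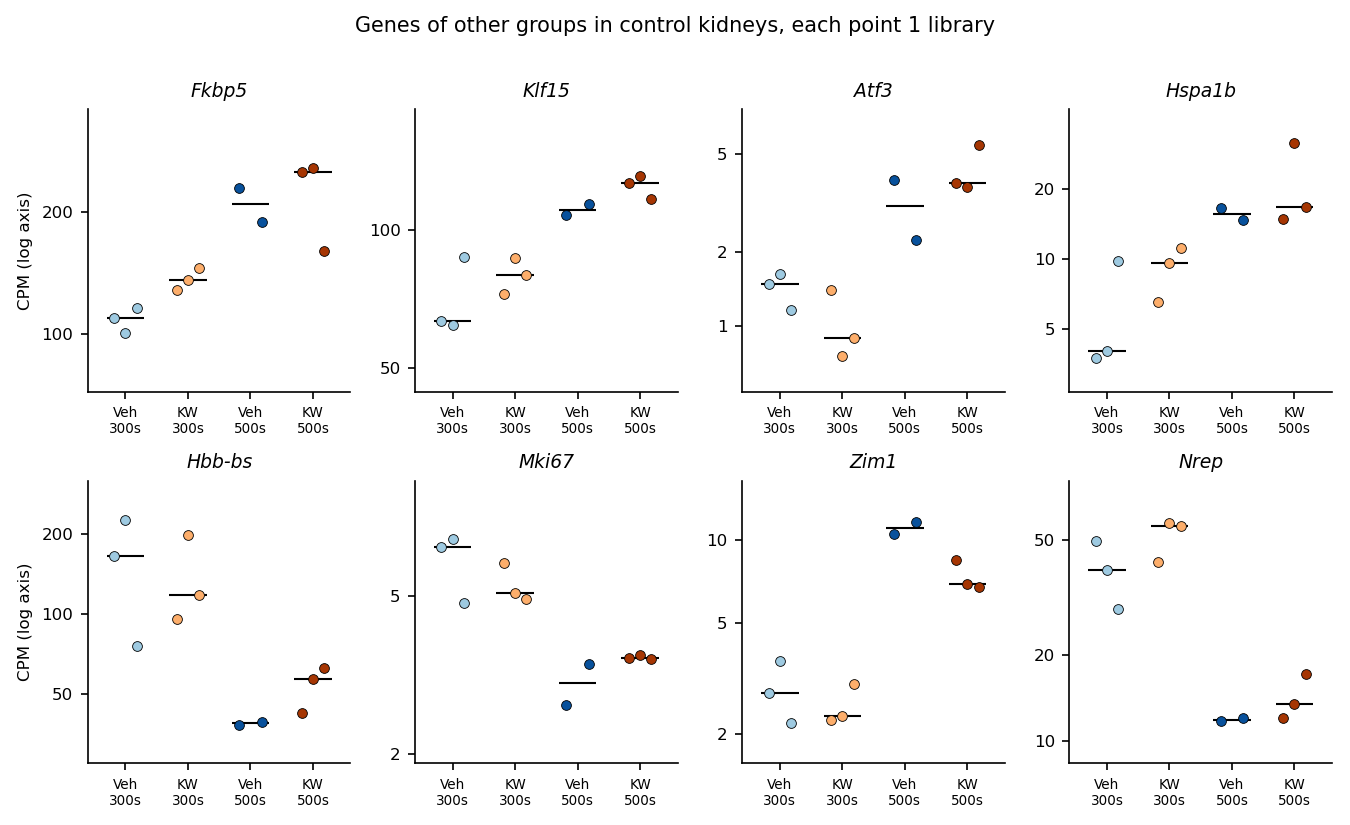
CPM on a log axis of 8 genes from other groups in the 11 control libraries, grouped as vehicle (Veh) and KW6002 (KW) in the 300s and 500s, with 1 point per library and a line at the group median. Fkbp5, Klf15, Atf3, Hspa1b, and Zim1 are higher in every library of the 500s, and Hbb-bs, Mki67, and Nrep are lower.

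All cisplatin libraries carried numbers in the 500s, so the levels of clock genes in them were set beside each control series. The comparisons share libraries and are given without a test. Against the vehicle mice of the 300s, Nr1d1 in cisplatin mice was at a log2 difference of -0.30, and against those of the 500s at -1.43. Ciart was at 0.11 and -0.29. In co-treated mice against KW6002 mice, Nr1d1 was at 0.86 with the 300s as reference and at -1.60 with the 500s, and Ciart at 1.79 and -1.27. The sign thus turned with the series for Ciart in both comparisons and for Nr1d1 in the second. Of 19 clock genes, 1 had opposite signs for cisplatin (Ciart) and 5 for co-treatment (with Clock, Nr1d1, Nr1d2, and Bhlhe41). The differences from both series were more than 0.5 apart for 3 and 11 genes. Nfil3 kept its sign, at 2.30 and 2.75 in cisplatin mice and 1.09 and 3.04 in co-treated mice, and so did Dbp, at -1.33 and -1.55 and at -0.18 and -1.90. Among other genes, Zim1 turned from 1.53 to -0.41 in cisplatin mice and from 1.27 to -0.28 in co-treated mice, and Nav2 from -0.41 to 0.45 and from -1.05 to 0.43.

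**Figure D5:**
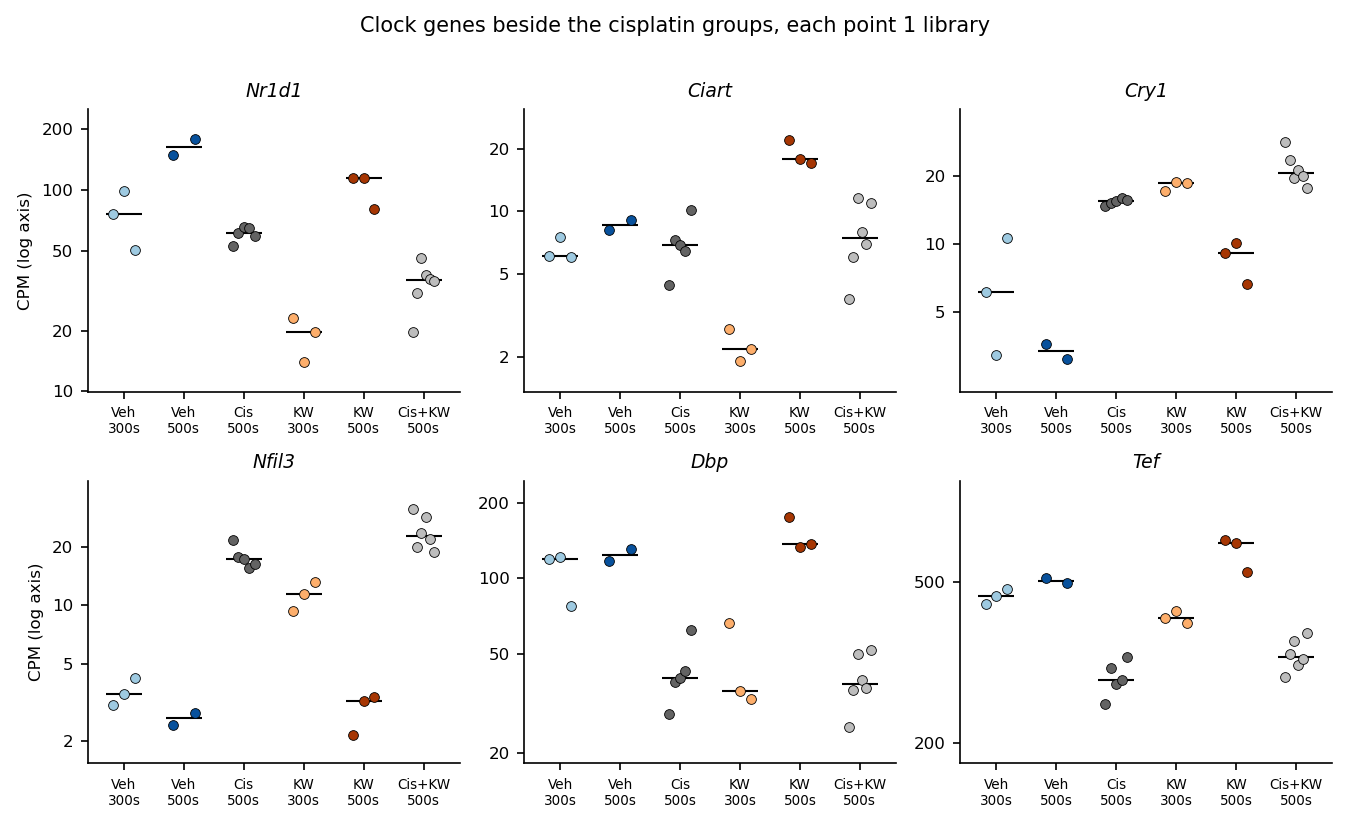
CPM on a log axis of 6 clock genes in all 22 libraries, as vehicle (Veh) of the 300s and 500s, cisplatin (Cis), KW6002 (KW) of the 300s and 500s, and cisplatin plus KW6002 (Cis+KW), with 1 point per library and a line at the group median. CPM here use scaling factors of all 22 libraries. Group medians of Nr1d1 and Ciart in co-treated mice lie between those of the KW6002 mice of both series, and every cisplatin library is above every control for Nfil3 (15.5 to 31.1 against 2.15 to 13.1 CPM).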

How the data were processed

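Kidney RNA of 22 mice was sequenced, and the 11 control libraries were used in every test. The authors prepared stranded mRNA libraries, demultiplexed with bcl2fastq 2.17.1.14, mapped to mm10 with STAR, kept uniquely aligned reads, and counted them per Ensembl gene with HTSeq 0.6.1p1. The deposited values are counts, whole numbers that the authors had not normalized. In the table, 66 columns without a name or values were not used. Symbols, positions, and overlaps came from GENCODE M21.

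Counts were analysed in edgeR 4.0.16 (R 4.3.3): filterByExpr with the 4 treatment-by-series groups (10 counts at the median library, CPM 0.326, in at least 2 libraries, 15 counts in all), TMM factors, treatment as an additive term, and quasi-likelihood F tests. The filter kept 16991 genes and 99.95% of counts, and p-values were adjusted over all of them after Benjamini and Hochberg. Interaction and within-treatment values came from 1 mean per group. The biological coefficient of variation was 0.12. Log2 CPM used a prior count of 2. Clock gene levels beside cisplatin came from an edgeR fit of 6 groups. Library measures were tested by exact two-sided permutation within treatment (200 arrangements, smallest p 0.005). All CPM values are per library, and the spread between replicates enters as SE. Figures were drawn with matplotlib 3.10.9.

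Members, lists, naming rule, and tests were chosen with earlier results of these data known. All clock genes of 3 lists were named, of other lists up to 4 called members with the smallest p, and the 12 genes with the largest difference in each direction among called genes without overlap between the series whose average log2 CPM was 1 or more. A few genes of the lists and of the naming rule are not reported here, though counts of called members include them. Lists share some genes, such as Cdkn1a, Dusp1, Plin2, Slc22a8, and Klhl3. Alternatives were DESeq2 1.42.0, other scalings and filters, no treatment term, all 22 libraries, 1 treatment only, thinning to the smallest total, stricter thresholds, and each library left out. Leaving out vehicle mice 1 and 2 together and a fat gene covariate were added after seeing the data. Steps were tested on simulated data.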

Additional observations from a re-analysis of the deposited data

Results flagged for a closer look

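Dixon's test was run on 198 sets of values within a series, of named genes and of library measures. In 6 of them 1 library lay far from the others, and by chance the test flags about 1 set in 20. In the 300s, Rorb was at 0.9987 CPM in vehicle mouse 1 against 0.441 to 0.5969 CPM in the other libraries, Dnajb1 at 35.15 CPM in KW6002 mouse 2 against 31.14 to 32.55 CPM, and Angptl4 at 48.48 CPM in KW6002 mouse 1 against 70.28 to 82.95 CPM. In the 500s, Mki67 was at 2.65 CPM in vehicle mouse 4 against 3.367 to 3.545 CPM. KW6002 mouse 5 of the 500s held both copies of HSP70 at high levels, with Hspa1a at 13.42 CPM against 7.926 to 9.005 CPM and Hspa1b at 31.48 CPM against 14.63 to 16.71 CPM.

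The series difference of Ciart was larger in KW6002 mice than in vehicle mice by 2.6562 on the log2 scale (edgeR interaction, adjusted p = 0.00256). With each library left out in turn, the adjusted p ran up to 0.0325, reached without vehicle mouse 5.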

How the results depend on the processing

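The number of genes at an adjusted p below 0.05 (1770) became 619 in vehicle mice only, 749 in KW6002 mice only, and 503 at an adjusted p below 0.01, and ran from 1012 to 2017 with 1 library left out. The number at an adjusted p below 0.01 and beyond 2-fold (55) became 105 with DESeq2, 135 without a filter, 88 with all 22 libraries, and 13 in vehicle mice only, and ran from 32 to 71 with 1 library left out. Testing for a log2 difference beyond 1 gave 0 genes in edgeR (94 at an unadjusted p below 0.05). The causes were not tested. Scaling by library size only called 769 higher and 978 lower, and 44% of its calls were higher against 53.4% in the reported fit.

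The interaction count (1) became 180 with DESeq2 and ran from 1 to 306 with 1 library left out. With the replicate number as a block it was 0 in edgeR (1963 at an unadjusted p below 0.05). Same-numbered libraries correlated at -0.234 to 0.263 in their deviations from the group means. The same-numbered KW6002 library correlated highest for vehicle mice 1, 4, and 5 and not for 2 and 3. With 2 or 3 mice per group, such correlations cannot decide whether the numbers pair the mice. The series contrast itself cannot be blocked, since numbers 1 to 3 are all in the 300s.

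With 1 library left out, the difference in percent of counts ran from -0.1018 to 0.08057 for mitochondrially encoded mRNAs, from -0.007407 to 0.002086 for Malat1 and Neat1, and from -0.0002757 to 8.87e-05 for genes without a symbol. The first component held 47.4% when computed on the 500 most variable genes and 23.9% after scaling, and the second 15.1% on those 500. Genes not called turned sign as follows: Arntl to 0.32 in vehicle mice, Clock to -0.0681 in KW6002 mice and -0.0122 without vehicle mice 1 and 2, Per2 to 0.0115 without a treatment term and 0.058 in KW6002 mice, Per3 to 0.13 in KW6002 mice, and Hlf to -0.10 in vehicle mice. With 1 library left out, Per2 ran from -0.14 to 0.0141, Per3 from -0.108 to 0.038, and Hlf from -0.0076 to 0.0642, with -0.00101 without KW6002 mouse 3. None of the 81 called named genes turned sign under any of these alternatives. These genes were called in the same libraries, some also chosen for lack of overlap, so a kept sign is not independent support. With 1 library left out, 65 to 79 kept the call, but 44 kept it in vehicle mice only and 49 in KW6002 mice only.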

Other observations

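Genes with the pattern most like Arntl over the 11 control libraries, by Pearson correlation of log2 CPM after removal of the treatment means, were Hspa12b (0.943), Magix (0.932), Palm3 (0.93), Rnft2 (0.926), and Zbtb45 (0.915) among 12765 genes. The most opposite were March6 (-0.945), Mrps31 (-0.94), Gm4285 (-0.934), Skiv2l (-0.911), and Sntb1 (-0.907). The correlations share libraries and depth and are a description.

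The tested genes were also set in 3 equal classes by exon length and by GC content. Of the 5661 longest genes, 480 were called higher in the 500s and 283 lower, and of the 5661 shortest 172 and 222. The median log2 difference was 0.02 in the longest genes and -0.033 in the shortest. By GC content, 61.8% of the calls were higher in the class with the lowest values, 51.6% in the middle class, and 48.4% in the class with the highest values, with median log2 differences of 0.0047, -0.0052, and -0.013.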
